A study of Mus musculus with 42 samples.

Results

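The genes described here are 8 genes of mineral metabolism in the mouse kidney: Kl, Vdr, Cyp24a1, Cyp27b1, Calb1, Trpv5, Slc8a1 and S100g. They were chosen by name, as the rows of the gene tables that carry these symbols, and they are 8 of 54532 genes listed. Klotho, encoded by Kl, is the co-receptor that lets the bone-derived hormone FGF23 signal in the tubule, where the hormone limits phosphate reabsorption and the making of active vitamin D. Active vitamin D is made by the 1-alpha-hydroxylase Cyp27b1, is broken down by the 24-hydroxylase Cyp24a1, and acts through the nuclear receptor Vdr, whose textbook target genes include Cyp24a1 and the calcium transport genes. In the distal convoluted and connecting tubule, calcium enters the cell through the apical channel Trpv5, is carried by the calcium-binding proteins calbindin-D28k (Calb1) and calbindin-D9k (S100g), and leaves through basolateral transporters such as the sodium-calcium exchanger Slc8a1.

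RNA was sequenced from 42 whole kidneys of C57BL/6 mice, 3 mice in each of 14 groups. Loss of Tsc2, a brake on the kinase complex mTORC1, was compared with loss of Tfeb, a transcription factor of lysosomal genes, and with loss of both (DKO). In the Cagg cohort the Cre recombinase was the tamoxifen-inducible, whole-body CaggCreERT2, the kidneys were taken at P30 (postnatal day 30), and controls, Tsc2 KO, Tfeb KO and DKO mice were compared. In the KSP cohort the same 4 genotypes were compared at P50 with KspCre, which is active in tubule epithelium. A KSP drug cohort, also at P50, held control, Tsc2 KO and DKO mice that received vehicle or rapamycin, an mTORC1 inhibitor, at 1 mg/kg, 3 doses per week for 11 intraperitoneal injections from P25. The study describes the Cagg controls as Cre-positive, tamoxifen-exposed mice without floxed Tsc2 and the KSP controls as Cre-negative, so KSP Tsc2 KO and control mice differ in Cre as well as in Tsc2. The KSP Tfeb KO mice carry Cre with Tsc2 intact, and the drug cohort holds no such group.

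Libraries held 14926050 to 22807605 reads counted on genes, with a median of 17802376. The squared difference between mice of a group, averaged over genes, was 16.4 to 87.5 times that of sampling noise. Tsc2 itself was at 9.81 to 10.6 FPKM (sequenced fragments relative to the length of the gene and the size of the library) in Cagg control and 4.06 to 4.55 in Cagg Tsc2 KO kidneys. It was at 8.75 to 9.26 against 3.54 to 4.37 in the KSP cohort, and at 8.59 to 9.81 against 3.80 to 4.47 under vehicle. Tfeb did not pass the test in Tfeb KO against control kidneys of either cohort (log2 fold change -0.80, adjusted p = 0.394 in Cagg and -0.33, adjusted p = 0.627 in KSP), whereas it was lower in DKO than in control kidneys (-1.08, adjusted p = 0.0111 in Cagg and -0.88, adjusted p = 0.0410 in KSP). Between DKO and Tsc2 KO kidneys Tfeb passed in Cagg (-1.48, adjusted p = 0.00325) and under vehicle (-1.07, adjusted p = 0.000667), and not in KSP (-0.48, adjusted p = 0.360), where DKO replicate 1 at 4.09 FPKM lay within the 3.66 to 6.12 of Tsc2 KO. Of the 12 Cagg libraries, 4 carry other names in the count table than in the FPKM table, 2 of them another group, and the FPKM names are used here. By those names DKO replicate 1, which the count table calls Tfeb KO, had 5.26 FPKM of Tsc2, beside 4.82 and 5.64 in the other DKO libraries, and Tfeb KO replicate 3, which the count table calls DKO, had 10.24, beside 9.34 and 9.05 in the other Tfeb KO libraries. For the 2 libraries that change group, these Tsc2 levels go with the FPKM names and against the count table's names. Why the names differ is unknown. Results that change with the count table's names are given with both. By Xist, all Cagg controls were male and all Cagg Tfeb KO mice female, and Cagg Tsc2 KO and DKO groups were mixed, whereas both KSP cohorts were female throughout. The summed level of 6 adrenal cortex markers was 1516 FPKM in KSP drug Tsc2 KO vehicle replicate 1, 2884 in DKO vehicle replicate 2, 211 in DKO vehicle replicate 1 and 165 in Cagg Tfeb KO replicate 1. KSP DKO replicate 1 stood apart with 685 FPKM over 8 macrophage markers. Results that change without these 5 libraries are given with and without them.

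All 8 genes passed the filter on low counts in all 3 cohorts. Kl (ENSMUSG00000058488) lies at chr5:150952607-150993817 on the plus strand of mm10, Calb1 (ENSMUSG00000028222) at chr4:15881264-15908064 on the plus strand, and Trpv5 (ENSMUSG00000036899) at chr6:41652173-41680769 on the minus strand. The libraries were not directional, so reads from genes that overlap on opposite strands cannot be told apart. This touches Cyp24a1, whose exons overlap those of Pfdn4, and Slc8a1, which overlaps the predicted genes AC122399.1 and Gm11096. S100g lies within Ctps2 but shares no exon with it.

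Kl and Trpv5 are shown with the 250 bases before their transcription start, because they moved in opposite directions on Tsc2 loss. The sequences come from RefSeq on GRCm38.p6, run 5′ to 3′ on the gene's own strand, and carry in capitals each match to CANNTG, the letters of an E-box. The Kl stretch is chr5:150952357-150952606, plus strand, and the Trpv5 stretch is chr6:41680724-41680973, minus strand.
Kl: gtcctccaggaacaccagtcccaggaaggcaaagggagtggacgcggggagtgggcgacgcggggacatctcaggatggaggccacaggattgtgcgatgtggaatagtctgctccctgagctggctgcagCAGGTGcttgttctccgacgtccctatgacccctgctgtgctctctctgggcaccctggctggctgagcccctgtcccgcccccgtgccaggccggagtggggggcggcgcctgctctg
Trpv5: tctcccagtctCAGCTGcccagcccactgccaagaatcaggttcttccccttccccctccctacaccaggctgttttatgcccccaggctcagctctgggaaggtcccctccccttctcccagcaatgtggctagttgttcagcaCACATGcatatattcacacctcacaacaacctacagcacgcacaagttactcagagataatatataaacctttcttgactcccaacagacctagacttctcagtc
The Kl stretch was 66.8% GC with 13 CpG sites, and that of Trpv5 51.6% with 1, against a median GC of 52.4% over 32851 promoters. CANNTG, which reads the same kind of match on both strands, was found in 6 of the 6 members present in the promoter set used, and in 66.2% of all promoters. Calb1 and Cyp24a1 were missing from that set, so their promoters were not searched. CACGTG, a form of the E-box contained in CANNTG that TFEB and related factors are known to bind, was found in 0 of 6 members and in 6.02% of all promoters. AGGTCA and GGTTCA, half-sites of nuclear receptors that were searched on both strands, were found only in S100g among these 6, and in 14.02% and 8.85% of all promoters. These matches describe letters in a window of 250 bases and not binding.

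In control kidneys of the Cagg cohort the members spanned a wide range of levels per length. S100g was highest at 2753 ± 286 FPKM (SD, n = 3), followed by Calb1 at 209 ± 24.9, Kl at 107 ± 1.57 and Vdr at 38.3 ± 3.72. Slc8a1 was at 15.9 ± 4.91 FPKM, Trpv5 at 11.4 ± 1.76, Cyp27b1 at 8.48 ± 1.51 and Cyp24a1 at 8.30 ± 4.18. Across the 14 groups, mean Kl ran from 26.7 FPKM in KSP drug Tsc2 KO vehicle to 111 in the vehicle controls, and mean Calb1 from 17.2 in KSP drug Tsc2 KO vehicle to 231 in Cagg Tfeb KO. Trpv5 had its highest mean, 35.1 FPKM, in the same vehicle-treated Tsc2 KO group and its lowest, 6.49, in Cagg DKO. Cyp24a1 ran from 1.73 FPKM in Cagg Tsc2 KO to 42.9 in the vehicle controls. When the groups were ordered by their mean, 12 or 13 of the 13 neighbouring pairs overlapped for each member, and such neighbours do not differ beyond their spread.

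**Figure D1:**
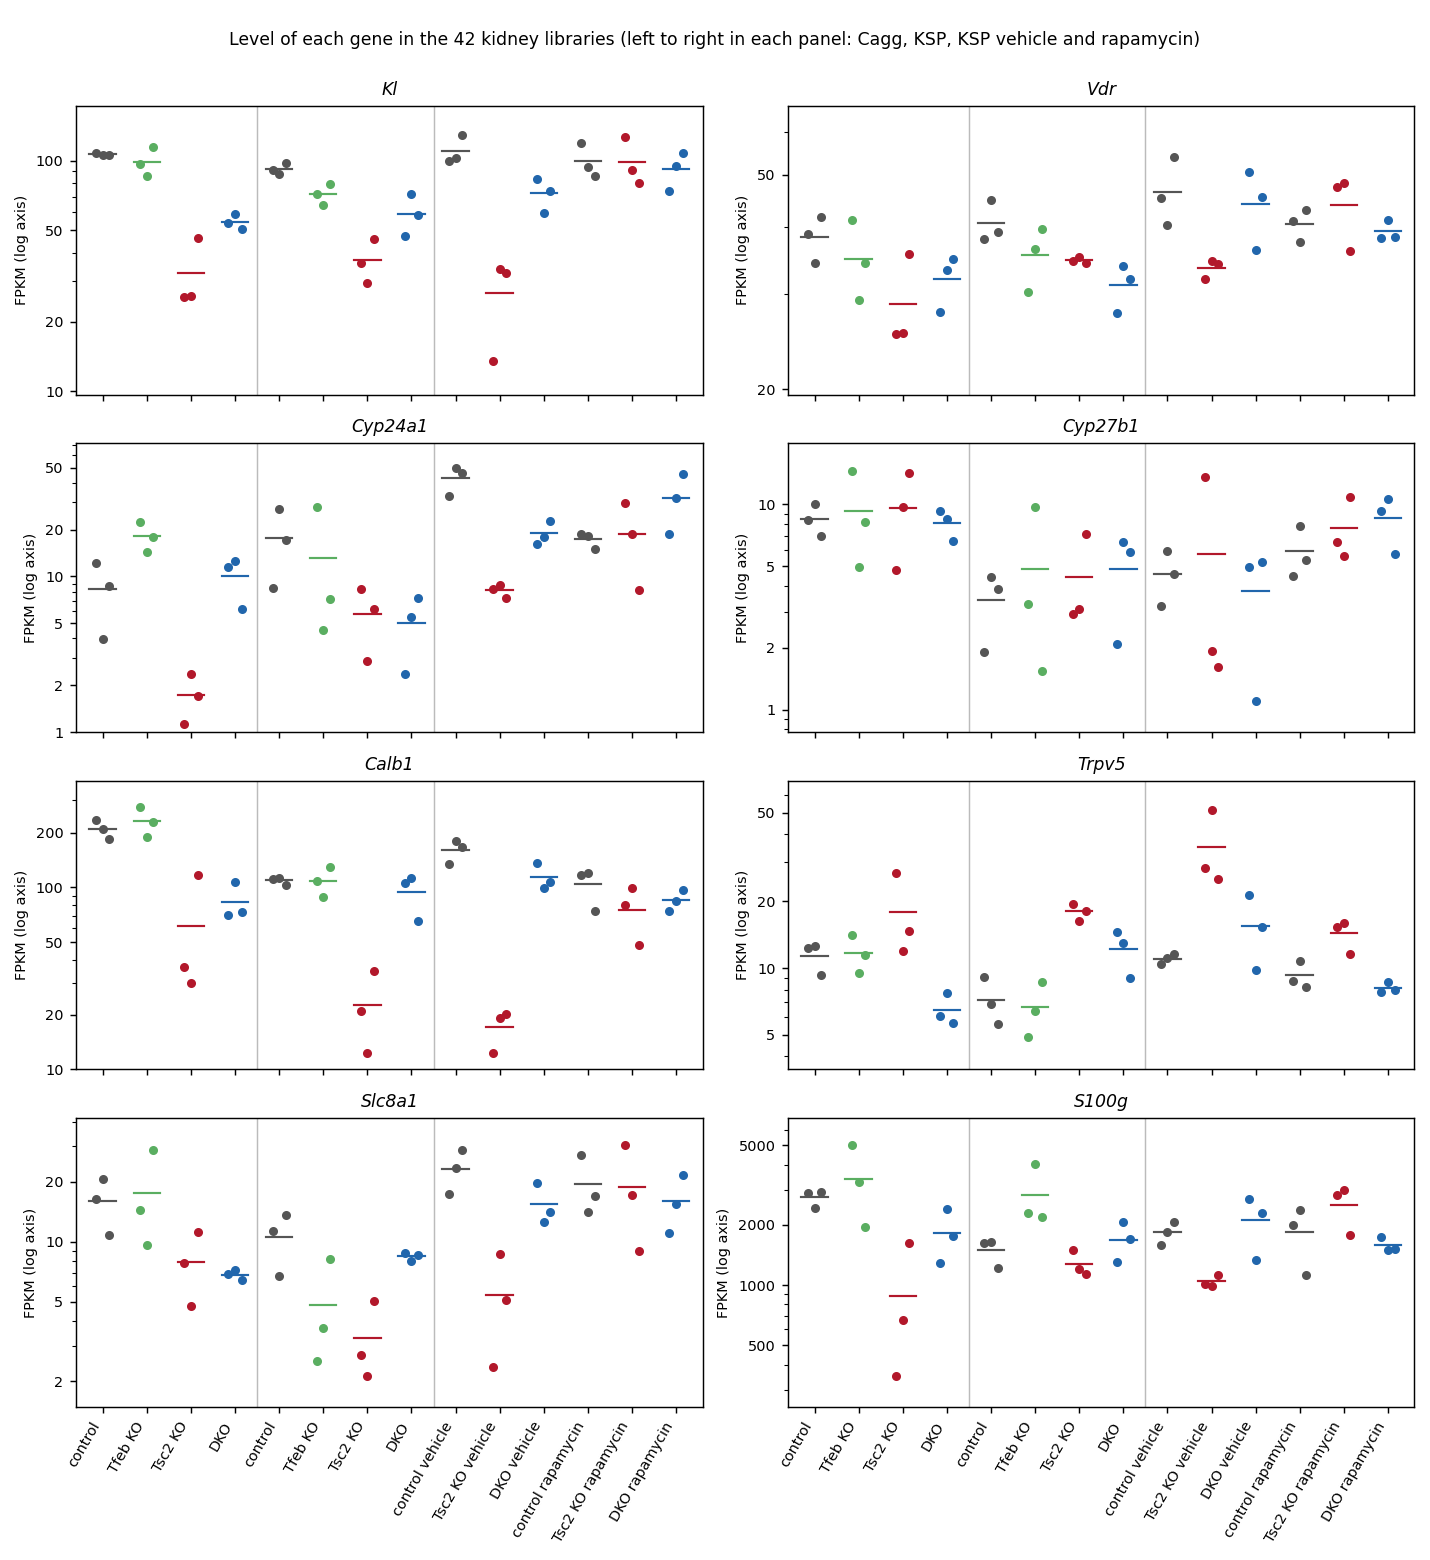
FPKM of the 8 genes (one panel each, log axis) in each of the 42 libraries, by group; points are mice and bars are group means. In all 3 cohorts the untreated or vehicle-treated Tsc2 KO points for Kl and Calb1 lie below those of the controls, and the rapamycin-treated ones lie higher.

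The first question was what loss of Tsc2 did to these genes. In all 3 cohorts Tsc2 KO kidneys held less Kl and Calb1 than controls, and in both KSP cohorts they held more Trpv5. Cyp24a1 and S100g were lower in the Cagg and drug cohorts, Slc8a1 was lower in both KSP cohorts, and Vdr was lower in the drug cohort alone. Cyp27b1 passed the test in none of the 3. In the quasi-likelihood test of edgeR (p-values adjusted for all genes after Benjamini and Hochberg), 4 of 8 members were lower and 0 higher in the Cagg cohort, where 13.4% of all genes were lower and 15.6% higher. In the KSP cohort 3 of 8 were lower and 1 higher, against 6.21% and 7.64% of all genes. Under vehicle 6 of 8 were lower and 1 higher, against 18.9% and 19.4%. With the KSP and vehicle-treated drug cohorts in one fit, again 6 were lower and 1 higher, against 21.4% and 20.7%, and the median log2 fold change of the members was -1.11 against -0.02 over all genes tested.

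Kl, the hormone co-receptor, was at 109, 106 and 106 FPKM in the 3 Cagg controls and at 25.7, 26.0 and 46.4 in Cagg Tsc2 KO kidneys. In the KSP cohort it was at 91.4, 87.4 and 98.2 against 36.2, 29.4 and 45.9. Vehicle-treated controls held 99.8, 103 and 129, and vehicle-treated Tsc2 KO kidneys 13.5, 33.8 and 32.7. Every Tsc2 KO kidney lay below every control of its cohort. The log2 fold change was -1.65 (SE 0.20, adjusted p = 0.000118) in Cagg, -1.32 (SE 0.19, adjusted p = 0.00123) in KSP and -2.05 (SE 0.29, adjusted p = 4.37e-05) under vehicle. The call held in every fit that left out 1 library.

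Vdr, the vitamin D receptor, moved little. It was at 38.8, 34.3 and 41.7 FPKM in Cagg controls against 25.4, 25.4 and 35.6 in Tsc2 KO kidneys, and at 37.9, 44.9 and 39.2 against 34.5, 35.2 and 34.3 in the KSP cohort. The Cagg groups overlapped and the KSP groups did not, yet neither difference passed the test (log2 fold change -0.35, adjusted p = 0.124 and -0.24, adjusted p = 0.276). Without Cagg Tsc2 KO replicate 3 the Cagg difference was -0.52 (adjusted p = 0.0237). Under vehicle the levels were 45.3, 40.3 and 53.8 in controls and 32.1, 34.5 and 34.1 in Tsc2 KO kidneys, and Vdr was lower by the test (-0.47, SE 0.14, adjusted p = 0.0149). Without control vehicle replicate 3 the adjusted p was 0.0804.

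Cyp24a1, which inactivates vitamin D, was at 12.3, 3.94 and 8.69 FPKM in Cagg controls and at 1.13, 2.34 and 1.71 in Cagg Tsc2 KO kidneys, without overlap. In the KSP cohort it varied more between mice, with 8.43, 27.2 and 17.1 in controls and 8.32, 2.85 and 6.15 in Tsc2 KO kidneys. Under vehicle the levels were 33.0, 49.6 and 46.0 against 8.25, 8.82 and 7.32. All Tsc2 KO values were thus under the lowest control of their cohort, by a narrow margin in KSP. The log2 fold change was -2.21 (SE 0.41, adjusted p = 0.00171) in Cagg and -2.40 (SE 0.37, adjusted p = 8.77e-05) under vehicle. In KSP it was -1.61 (SE 0.68) and did not pass (adjusted p = 0.151), whereas in the fit of both KSP cohorts together Cyp24a1 was lower, at -1.99 (SE 0.34, adjusted p = 0.000181).

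Cyp27b1, which makes active vitamin D, was not shown to move. Its log2 fold change was 0.23 (adjusted p = 0.696) in Cagg and 0.37 (adjusted p = 0.765) in KSP. Each of these took the other sign under 1 alternative. Cagg controls held 8.38, 10.03 and 7.03 FPKM and Cagg Tsc2 KO kidneys 4.78, 9.68 and 14.1. In the KSP cohort the values were 1.92, 4.43 and 3.85 against 2.93, 3.10 and 7.17. Both pairs of groups overlapped. Under vehicle the controls were at 3.20, 5.90 and 4.60, and the Tsc2 KO kidneys at 13.6, 1.93 and 1.62, so that 1 Tsc2 KO kidney was above and 2 were below all controls. The high value came from Tsc2 KO vehicle replicate 1, the library with 1516 FPKM of adrenal cortex markers. DKO vehicle replicate 2, with the highest sum of those markers at 2884, had the lowest Cyp27b1 of all 42 libraries at 1.105 FPKM. These libraries differ in genotype, and the part of adrenal transcripts in the Cyp27b1 levels was not tested. With all libraries the log2 fold change was 0.32 (SE 0.66, adjusted p = 0.737). Without Tsc2 KO vehicle replicate 1 alone it was -1.36 (adjusted p = 0.0605), and without all libraries high in adrenal cortex or macrophage transcripts it was -1.35 and passed the test (adjusted p = 0.0127).

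Trpv5, the apical calcium channel, went the other way from the rest of the transport chain. KSP controls held 9.08, 6.86 and 5.61 FPKM and KSP Tsc2 KO kidneys 19.5, 16.3 and 18.2. Under vehicle it was at 10.4, 11.1 and 11.6 against 28.2, 51.7 and 25.2. Neither pair of groups overlapped, and the log2 fold change was 1.32 (SE 0.24, adjusted p = 0.00402) in KSP and 1.67 (SE 0.27, adjusted p = 0.000140) under vehicle. In the Cagg cohort the controls were at 12.3, 12.5 and 9.35 FPKM and the Tsc2 KO kidneys at 26.8, 11.9 and 14.7. These groups overlapped, and the difference of 0.72 (SE 0.26) did not pass (adjusted p = 0.0583). Without Tsc2 KO replicate 2 or 3 it passed, at 0.94 (adjusted p = 0.0174) and 0.84 (adjusted p = 0.0418). Trpv6, a paralog of Trpv5 that was singled out after its values were seen, was also higher (log2 fold change 1.51, adjusted p = 0.0212 in Cagg, and 1.88, adjusted p = 3.36e-05 in both KSP cohorts together).

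Calb1, the cytosolic calcium carrier of the distal tubule, fell in all 3 cohorts. Cagg controls held 235, 209 and 185 FPKM and Cagg Tsc2 KO kidneys 36.6, 29.8 and 117. In KSP it was at 112, 113 and 103 against 21.1, 12.4 and 34.5, and under vehicle at 134, 179 and 167 against 12.4, 19.2 and 20.1. No Tsc2 KO kidney reached the lowest control of its cohort, and Cagg Tsc2 KO replicate 3 was the nearest. The log2 fold change was -1.72 (SE 0.41, adjusted p = 0.00800) in Cagg, -2.27 (SE 0.33, adjusted p = 0.00120) in KSP and -3.21 (SE 0.27, adjusted p = 3.02e-07) under vehicle. With the Cagg names of the count table the adjusted p in that cohort was 0.0650.

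S100g, the smaller calbindin, was at 2905, 2423 and 2932 FPKM in Cagg controls and at 351, 666 and 1623 in Cagg Tsc2 KO kidneys. In KSP the values were 1627, 1648 and 1218 against 1495, 1199 and 1133, and under vehicle 1583, 1843 and 2078 against 1017, 987 and 1124. The Cagg and vehicle groups did not overlap, and the KSP groups did. The log2 fold change was -1.59 (SE 0.46, adjusted p = 0.0225) in Cagg, -0.81 (SE 0.27, adjusted p = 0.0258) under vehicle and -0.23 in KSP, which did not pass (adjusted p = 0.608). The KSP cohorts fitted together gave -0.53 (SE 0.18, adjusted p = 0.0213), a call that was lost without control vehicle replicate 3 or any one vehicle-treated Tsc2 KO library (adjusted p = 0.0513 to 0.0656). The Cagg call was lost without any one of control replicates 1 and 3 and Tsc2 KO replicates 1 and 2 (adjusted p = 0.0560, 0.0622, 0.0650 and 0.0757), with Xist as a covariate for sex (adjusted p = 0.0996) and with the names of the count table (adjusted p = 0.0536). The vehicle call was lost without control vehicle replicate 2 or 3 or Tsc2 KO vehicle replicate 1 or 2, with adjusted p from 0.0569 to 0.0842.

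Slc8a1, the basolateral exchanger, was at 16.3, 20.6 and 10.8 FPKM in Cagg controls and at 7.84, 4.76 and 11.2 in Cagg Tsc2 KO kidneys, which overlapped. In KSP it was at 11.3, 6.70 and 13.7 against 2.70, 2.12 and 5.07, and under vehicle at 17.3, 23.3 and 28.7 against 2.34, 8.69 and 5.09. All Tsc2 KO values of both KSP cohorts were below all controls. The log2 fold change was -1.68 (SE 0.43, adjusted p = 0.0228) in KSP and -2.10 (SE 0.46, adjusted p = 0.00191) under vehicle, and -0.94 (SE 0.38, adjusted p = 0.0828) in Cagg. The KSP call was lost without control replicate 1 or 3 or Tsc2 KO replicate 1 or 2, with adjusted p from 0.0635 to 0.0934, and the Cagg difference passed without Tsc2 KO replicate 3 (-1.26, adjusted p = 0.0382). The KSP cohorts fitted together gave -1.91 (SE 0.28, adjusted p = 3.39e-05).

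**Figure D2:**
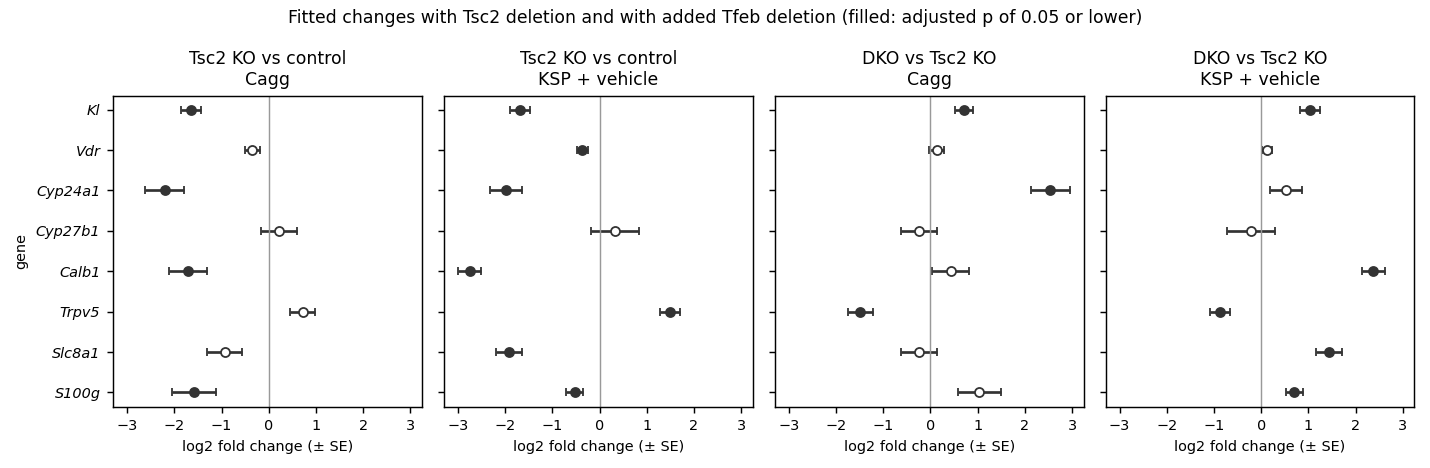
Log2 fold change (points) with its standard error (bars) for each of the 8 genes on loss of Tsc2 and on added loss of Tfeb, from edgeR, in the Cagg cohort (3 mice per group) and in the KSP and vehicle-treated drug cohorts together (6 mice per group); filled points have an adjusted p of 0.05 or lower. Kl and Calb1 lie below 0 and Trpv5 above 0 on loss of Tsc2, and in DKO against Tsc2 KO their signs are the opposite. The Tsc2 KO kidneys enter both comparisons, which are thus not independent.

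The Cagg cohort differed from the KSP cohorts in Cre line, age and sex, and the difference between the Tsc2 effects was tested directly. It passed for 0 of 8 members in either direction by edgeR, and for 0 by DESeq2, with 2 higher and 2 lower at an unadjusted p under 0.05. Of all genes, 1.62% passed in the higher and 1.84% in the lower direction.

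The members did not move alone. Of 6 distal convoluted tubule markers, 5 were lower in Cagg Tsc2 KO kidneys and 0 higher, and their summed level was 61.5 to 118 FPKM against 233 to 236 in controls. Under vehicle 5 of 6 were lower as well, with sums of 85.5 to 102 against 184 to 225 FPKM, and in KSP 2 of 6, with 100.3 to 126 against 177 to 181. Summed proximal tubule markers stood at 938 to 1798 FPKM in Cagg Tsc2 KO kidneys against 3661 to 3964 in controls, and 6 injury markers at 4986 to 7532 against 1351 to 1693. In KSP the proximal tubule sums were 1320.3 to 2172 against 3316 to 3726, and the injury sums 5730.3 to 7596 against 1189 to 1552. Under vehicle they were 626 to 1001.5 against 3300.02 to 3636, and 5090.3 to 7420 against 1192 to 1233. Connecting tubule and principal cell markers, 7 in all, summed to 318 to 483 FPKM against 766 to 924 in Cagg, 328 to 348 against 537 to 959 in KSP and 301 to 344 against 387 to 454 under vehicle. Thick limb markers, 5 in all, summed to 799 to 917 against 1265 to 1546 in Cagg but to 2008 to 2186 against 1498 to 1706 in KSP, where 3 of the 5 were lower and 0 higher by the test. Under vehicle the thick limb sums overlapped, at 1029 to 1955 against 1274 to 1801. Macrophage markers, 8 in all, summed to 99.4 to 181 FPKM against 42.2 to 57.4 under vehicle. The part of these shifts in the changes of the 8 genes was not tested, and in whole kidneys fewer cells of a type and less RNA per cell cannot be told apart. Trpv5, which belongs to the same tubule segments as Calb1, was at a higher level in the KSP cohorts. For each 100 FPKM of Calb1, the median kidney held 5.22 FPKM of Trpv5 in Cagg controls and 39.8 in Cagg Tsc2 KO, 6.09 and 92.6 in KSP, and 6.95 and 228 under vehicle. The lowest Tsc2 KO ratios, 12.6, 52.6 and 126, were all above the highest control ratios of their cohorts, 6.00, 8.13 and 7.81. The ratio is built from members already seen to move apart in these libraries, so it is a description and no separate result. In Cagg the Trpv5 levels themselves overlapped between the groups.

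**Figure D3:**
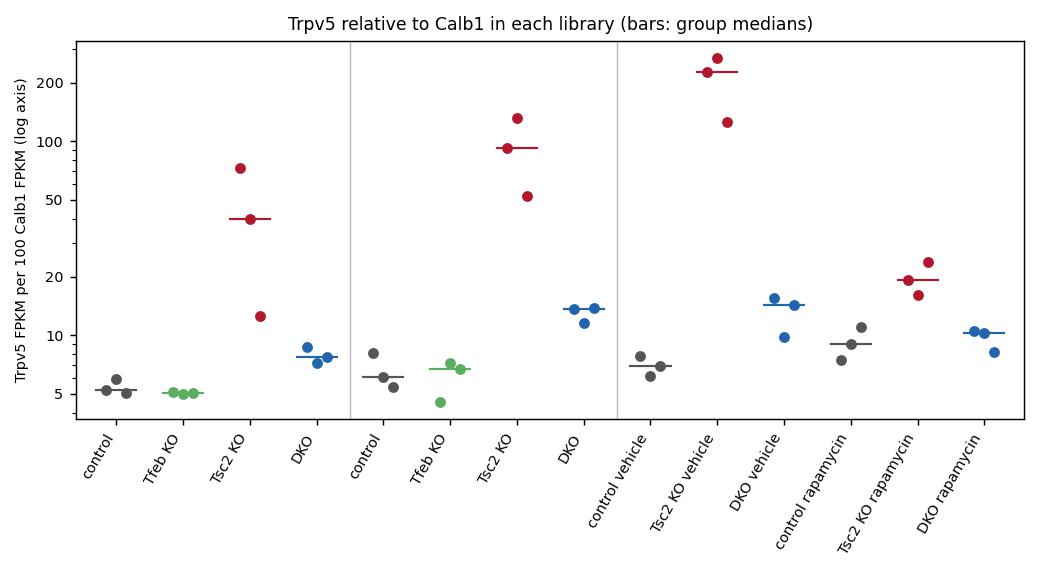
Trpv5 FPKM per 100 FPKM of Calb1 (log axis) in each library, by group, with Cagg, KSP and the KSP drug cohort from left to right; points are mice and bars are group medians. Untreated and vehicle-treated Tsc2 KO kidneys lie at 12.6 or more, above every control of their cohort, and DKO and rapamycin-treated kidneys lie nearer to the controls.

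The second question was whether Tfeb was needed for these changes, which the DKO kidneys address. Against Tsc2 KO kidneys, DKO kidneys held more Calb1 in both KSP cohorts, more Kl and less Trpv5 in the Cagg and drug cohorts, and more Cyp24a1 in these same 2 cohorts. Slc8a1 and S100g were higher in the drug cohort. Tsc2 KO kidneys enter both this comparison and the one with controls, so these are not independent. In the Cagg cohort 2 of 8 members were higher and 1 lower, against 5.34% and 4.58% of all genes. In KSP 1 was higher and 0 lower, against 0.0601% and 0.0842%, with 3 higher and 1 lower at an unadjusted p under 0.05 and 3 higher and 0 lower by DESeq2. Under vehicle 5 were higher and 1 lower, against 11.9% and 10%, and in both KSP cohorts together 4 and 1, against 8.68% and 7.53%.

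Kl was at 53.6, 58.7 and 50.8 FPKM in Cagg DKO kidneys, all above the Tsc2 KO kidneys of 25.7 to 46.4 and all below the controls. The Kl difference of 0.71 (SE 0.20, adjusted p = 0.0420) from Tsc2 KO was lost without any one of 5 of the 6 libraries, with adjusted p up to 0.170, and stayed a call only without Tsc2 KO replicate 3. With Xist as a covariate it was 0.78 (adjusted p = 0.0661), and with the names of the count table it was 1.18 (adjusted p = 0.0538). In KSP DKO kidneys Kl was at 47.3, 71.7 and 58.1 FPKM, above all KSP Tsc2 KO kidneys, and the difference of 0.67 did not pass (adjusted p = 0.161). Vehicle-treated DKO kidneys held 83.2, 59.2 and 74.3, against at most 33.8 in Tsc2 KO, a difference of 1.43 (SE 0.28, adjusted p = 0.00187). Compared with controls, Kl in DKO kidneys remained lower in Cagg (-0.94, SE 0.20, adjusted p = 0.0105, but -0.47, adjusted p = 0.663 with the names of the count table), and it was lower, at -0.65 (SE 0.21, adjusted p = 0.0459) in both KSP cohorts together. The latter call was lost without any one of 11 of 12 libraries, with adjusted p up to 0.109, and held only without DKO vehicle replicate 1.

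Cyp24a1 was at 11.5, 12.7 and 6.20 FPKM in Cagg DKO kidneys, all above the 1.13 to 2.34 of Tsc2 KO and overlapping with controls (2.54, SE 0.41, adjusted p = 0.00348 against Tsc2 KO). Under vehicle DKO kidneys held 16.2, 17.96 and 22.6, between the Tsc2 KO kidneys and the controls without overlap with either (1.22, SE 0.35, adjusted p = 0.0215). That call was lost without any one of Tsc2 KO vehicle replicates 1, 2 and 3 and DKO vehicle replicate 3, with adjusted p from 0.0530 to 0.0777, and without the libraries high in adrenal cortex transcripts (1.49, adjusted p = 0.121). In KSP the DKO values of 2.35, 5.46 and 7.26 overlapped with those of Tsc2 KO, and the difference was -0.20 (adjusted p = 0.944). Against controls of both KSP cohorts together, Cyp24a1 in DKO kidneys was lower, at -1.47 (SE 0.33, adjusted p = 0.00778), or -1.27 (adjusted p = 0.0604) without the libraries high in adrenal cortex or macrophage transcripts. Against vehicle-treated controls alone it was -1.18 (adjusted p = 0.0571), and -1.34 (adjusted p = 0.0499) without control vehicle replicate 1. Cyp27b1 was at 9.25, 8.50 and 6.62 FPKM in Cagg DKO, 2.09, 6.56 and 5.86 in KSP DKO and 4.97, 1.105 and 5.26 in vehicle-treated DKO kidneys, and passed in no DKO comparison. Vdr, at 27.7, 33.3 and 34.9 in Cagg DKO, 27.6, 33.9 and 32.0 in KSP DKO and 50.4, 36.3 and 45.4 in vehicle-treated DKO kidneys, also passed in none. Without DKO vehicle replicate 2, Vdr was higher than in vehicle-treated Tsc2 KO kidneys by 0.51 (adjusted p = 0.0146), and without DKO vehicle replicate 1 it was lower than in controls of both KSP cohorts together (-0.32, adjusted p = 0.0484).

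Calb1 in DKO kidneys was at 70.1, 107 and 73.2 FPKM in Cagg, 106, 112 and 65.4 in KSP and 137, 99.7 and 106 under vehicle. In both KSP cohorts every DKO kidney was above every Tsc2 KO kidney, while the Cagg groups overlapped through Tsc2 KO replicate 3 at 117. The difference from Tsc2 KO was 2.06 (SE 0.33, adjusted p = 0.0355) in KSP, 2.73 (SE 0.27, adjusted p = 5.71e-06) under vehicle and 0.43 (SE 0.40, adjusted p = 0.532) in Cagg. Without Cagg Tsc2 KO replicate 3 the Cagg difference was 1.29 (adjusted p = 0.00306). The KSP call was lost without any one of 5 of 6 libraries, with adjusted p up to 0.219, and with the replicate number as a block (2.13, adjusted p = 0.0758), where same-numbered mice deviated together. Fitted over both KSP cohorts, Calb1 was higher by 2.38 (SE 0.24, adjusted p = 3.49e-05) and held in every fit without 1 library.

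Trpv5 in DKO kidneys was at 6.11, 7.68 and 5.68 FPKM in Cagg, below every Tsc2 KO kidney and every control. Against Tsc2 KO the log2 fold change was -1.48 (SE 0.27, adjusted p = 0.00637), or -1.13 (adjusted p = 0.0766) with the names of the count table, and against controls it was -0.77 and did not pass (adjusted p = 0.0932). In KSP the DKO values of 14.5, 12.96 and 9.01 were below all Tsc2 KO values (-0.56, adjusted p = 0.345), and vehicle-treated DKO kidneys at 21.3, 9.77 and 15.2 were below all vehicle-treated Tsc2 KO kidneys (-1.18, SE 0.26, adjusted p = 0.00424). Fitted over both KSP cohorts the difference was -0.87 (SE 0.21, adjusted p = 0.00903). Against controls Trpv5 in DKO kidneys of both KSP cohorts was at 0.61 (adjusted p = 0.0543), and at 0.75 (adjusted p = 0.0165) without DKO vehicle replicate 2. The Trpv5 to Calb1 ratio was accordingly lower. Its median per 100 FPKM of Calb1 was 7.76 in Cagg DKO, 13.6 in KSP DKO and 14.3 in vehicle-treated DKO kidneys, each below the lowest Tsc2 KO ratio of its cohort.

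S100g in DKO kidneys was at 1292, 2412 and 1757 FPKM in Cagg, at 1297, 2069.95 and 1698 in KSP and at 2711, 1330.3 and 2288 under vehicle. The vehicle-treated DKO kidneys were all above the Tsc2 KO kidneys (1.02, SE 0.27, adjusted p = 0.0133), and the groups of the other cohorts overlapped. In Cagg the difference was 1.03 (adjusted p = 0.173), and it passed without Tsc2 KO replicate 3 (1.81, adjusted p = 0.0108). The vehicle call was lost without Tsc2 KO vehicle replicate 2 or DKO vehicle replicate 1 (adjusted p = 0.0512 and 0.0744) and without the libraries high in adrenal cortex transcripts (adjusted p = 0.0702). Slc8a1 was at 6.89, 7.21 and 6.39 in Cagg DKO, within the Tsc2 KO range, at 8.73, 7.97 and 8.62 in KSP DKO, and at 19.6, 12.5 and 14.1 in vehicle-treated DKO kidneys, above the Tsc2 KO kidneys in both KSP cohorts. It passed under vehicle (1.51, SE 0.45, adjusted p = 0.0253) and in both KSP cohorts together (1.44, SE 0.27, adjusted p = 0.00219), and not in KSP alone (1.36, adjusted p = 0.207). The vehicle call was lost without Tsc2 KO vehicle replicate 1 or 3 or DKO vehicle replicate 1, with adjusted p from 0.0733 to 0.0935, and without the libraries high in adrenal cortex transcripts (1.03, adjusted p = 0.342).

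Markers of kidney cell types moved in the same libraries. Vehicle-treated DKO kidneys held 127 to 183 FPKM of summed distal convoluted tubule markers against 85.5 to 102 in Tsc2 KO, and 500.1 to 894 of connecting tubule and principal cell markers against 301 to 344. Proximal tubule markers summed to 1785 to 3127 against 626 to 1001.5, and injury markers to 1463 to 3304 against 5090 to 7420. In Cagg, proximal tubule markers summed to 2319 to 2754 FPKM in DKO against 938 to 1798 in Tsc2 KO, connecting tubule and principal cell markers to 521 to 723 against 318 to 483, and thick limb markers to 1102 to 1211 against 799 to 917, all without overlap. In KSP, DKO kidneys held 130.2 to 158 FPKM of distal convoluted tubule markers against 100.3 to 126 in Tsc2 KO, 662 to 864 of connecting tubule and principal cell markers against 328 to 348, and 2588 to 3294 of injury markers against 5730.3 to 7596, again without overlap. The KSP proximal tubule sum of 1528 to 2692 in DKO overlapped with 1320.3 to 2172 in Tsc2 KO, and the thick limb sum of 1823 to 3451 with 2008 to 2186. In Cagg DKO kidneys the distal convoluted tubule sum of 97.7 to 129 overlapped with the 61.5 to 118 of Tsc2 KO, and the injury sum of 3893 to 6461 with 4986 to 7532. Tsc2 itself was at 5.17 to 5.81 FPKM in KSP DKO against 3.54 to 4.37 in KSP Tsc2 KO kidneys, and at 5.53 to 6.41 in vehicle-treated DKO against 3.80 to 4.47 in Tsc2 KO kidneys (0.58, SE 0.10, adjusted p = 0.000843). The part of these markers and of the Tsc2 level in the results was not tested.

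Compared directly with controls, DKO kidneys had 1 member lower and 0 higher in Cagg, against 3.35% and 6.85% of all genes. In KSP 0 passed in either direction by edgeR, against 2.27% higher and 0.83% lower of all genes, with 1 higher and 3 lower at an unadjusted p under 0.05 and 1 higher and 1 lower by DESeq2. Under vehicle 0 passed, against 3.96% and 2.06%, with 0 higher and 2 lower at an unadjusted p under 0.05 and 1 lower by DESeq2. Over both KSP cohorts Kl and Cyp24a1 were lower and 0 were higher, against 6.16% lower and 8.91% higher of all genes.

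Loss of Tfeb alone was compared with control in the Cagg and KSP cohorts. In Cagg, sex and loss of Tfeb cannot be told apart by the FPKM names, whereas by the count table's names the Tfeb KO group held 2 female and 1 male kidneys. In Cagg Tfeb KO kidneys Kl was at 97.0, 86.2 and 114 FPKM, Calb1 at 275, 189.5 and 227 and Trpv5 at 14.1, 9.46 and 11.5, all overlapping with controls. Cyp24a1, at 22.3, 14.4 and 18.01, was above all controls, a difference of 1.17 that did not pass (adjusted p = 0.459). The other members there were Vdr at 41.2, 29.3 and 34.3, Cyp27b1 at 14.5, 4.96 and 8.23, Slc8a1 at 14.4, 9.61 and 28.8 and S100g at 4999.9, 3264 and 1960.01 FPKM, and they overlapped with controls. By edgeR 0 of 8 passed, with 1 higher and 0 lower at an unadjusted p under 0.05 and 0 by DESeq2, against 0.0122% of all genes higher and 0.00612% lower.

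In KSP Tfeb KO kidneys Kl was at 71.6, 64.6 and 79.6 FPKM, below all controls, and Calb1 at 108, 88.6 and 129 and Trpv5 at 4.91, 6.42 and 8.68 overlapped with them. S100g, at 2292.5, 4019.9 and 2189.8, was above all controls (0.92, adjusted p = 0.582), and Slc8a1, at 2.53, 3.70 and 8.15, overlapped with them (-1.13, adjusted p = 0.582). Vdr was at 30.2, 36.4 and 39.6, Cyp24a1 at 27.7, 4.50 and 7.18 and Cyp27b1 at 3.26, 9.71 and 1.54, overlapping with controls. By edgeR 0 of 8 passed, as did 0% of all genes higher and 0% lower, with 1 member higher and 1 lower at an unadjusted p under 0.05 and 0 by DESeq2.

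Whether Tfeb loss acted differently with and without Tsc2 was tested as a difference of the effects. In Cagg 0 of 8 members passed by edgeR, against 1.05% of all genes higher and 0.355% lower, with 2 higher and 1 lower at an unadjusted p under 0.05 and 1 lower by DESeq2. The nearest was Trpv5 at -1.55 (adjusted p = 0.0632). In KSP 0 of 8 passed by edgeR, against 0% of all genes in either direction, with 3 higher and 0 lower at an unadjusted p under 0.05 and 3 higher by DESeq2. There Calb1 was at 2.07 and Slc8a1 at 2.48 (adjusted p = 0.329 for both).

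The third question was what rapamycin did to these genes. In Tsc2 KO kidneys rapamycin raised Kl, Vdr, Cyp24a1, Calb1, S100g and Slc8a1 and lowered Trpv5, so each of the 7 members that had changed under vehicle moved back towards control. In the edgeR test 6 of 8 members were higher and 1 lower, against 15.4% and 14% of all genes. Because vehicle-treated Tsc2 KO kidneys enter both this comparison and the one with controls, the 2 are not independent.

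Kl was at 127, 91.1 and 80.3 FPKM in rapamycin-treated Tsc2 KO kidneys, all above the 13.5 to 33.8 under vehicle and overlapping with the vehicle-treated controls (1.90, SE 0.29, adjusted p = 0.000146). Vdr was at 47.5, 48.3 and 36.1 against 32.1 to 34.5 (0.39, SE 0.14, adjusted p = 0.0456). That Vdr call was lost without any one of 5 of 6 libraries, with adjusted p up to 0.153. It also went without the library high in adrenal cortex transcripts (adjusted p = 0.0931) and with the replicate number as a block (adjusted p = 0.0560).

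Cyp24a1 was at 29.6, 18.7 and 8.15 FPKM under rapamycin against 8.25, 8.82 and 7.32 under vehicle, so that replicate 3 lay within the vehicle range (1.21, SE 0.35, adjusted p = 0.0172). Without Tsc2 KO rapamycin replicate 1 the adjusted p was 0.120, without Tsc2 KO vehicle replicate 3 it was 0.0601, and without the libraries high in adrenal cortex transcripts it was 0.0572. Cyp27b1 was at 6.51, 5.61 and 10.8 against 13.6, 1.93 and 1.62 (0.43, SE 0.65, adjusted p = 0.667). Without Tsc2 KO vehicle replicate 1, the library at 13.6, the Cyp27b1 difference was 2.10 (adjusted p = 0.0101).

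Calb1 was at 79.5, 98.8 and 48.4 FPKM under rapamycin, all above the 12.4 to 20.1 under vehicle and all below the vehicle-treated controls of 134 to 179 (2.14, SE 0.26, adjusted p = 2.24e-05 against vehicle). Trpv5 was at 15.4, 16.0 and 11.6 against 25.2 to 51.7 (-1.29, SE 0.27, adjusted p = 0.00170), and its ratio to Calb1 had a median of 19.3 per 100 FPKM against 228 under vehicle. S100g was at 2811, 2994 and 1779 against 987 to 1124 (1.28, SE 0.27, adjusted p = 0.00223). Slc8a1 was at 30.4, 17.1 and 8.97 against 2.34 to 8.69 (1.80, SE 0.46, adjusted p = 0.00719). None of these 4 genes overlapped between rapamycin and vehicle, and all 4 calls, as that of Kl, held in every fit without 1 library. The 6 distal convoluted tubule markers moved in the same samples, with 5 of 6 higher under rapamycin and summed levels of 152 to 203 FPKM against 85.5 to 102. Connecting tubule and principal cell markers summed to 348 to 653 against 301 to 344, and injury markers to 1591 to 2385 against 5090 to 7420. Thick limb markers summed to 2071 to 2584 against 1029 to 1955, and macrophage markers to 41.4 to 85.9 against 99.4 to 181. Tsc2 itself was higher under rapamycin in these Tsc2 KO kidneys, at 5.06 to 6.50 FPKM against 3.80 to 4.47 (0.49, SE 0.10, adjusted p = 0.00199). The part of the markers and of the Tsc2 level in the result was not tested.

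**Figure D4:**
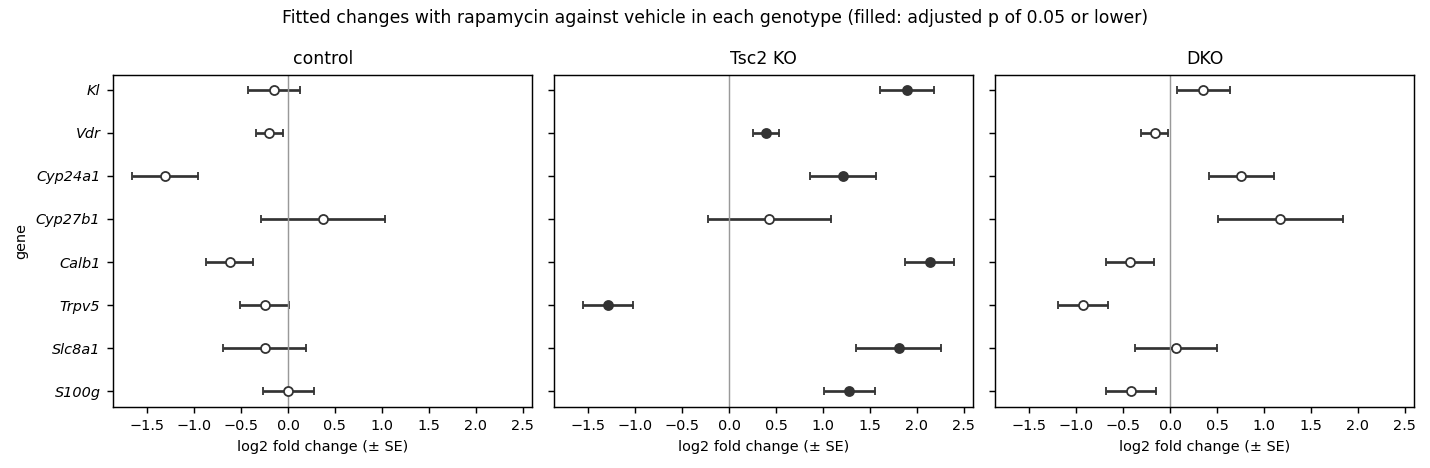
Log2 fold change of rapamycin against vehicle (points) with its standard error (bars) for the 8 genes in control, Tsc2 KO and DKO kidneys of the KSP drug cohort, from edgeR with 3 mice per group; filled points have an adjusted p of 0.05 or lower. Filled points are seen in Tsc2 KO kidneys alone, where Kl, Calb1 and Slc8a1 lie furthest above 0 and Trpv5 lies below it.

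In control kidneys rapamycin left 0 of 8 members past the test by edgeR, against 0% of all genes higher and 0.0294% lower, with 0 higher and 2 lower at an unadjusted p under 0.05 and 1 lower by DESeq2. Rapamycin-treated controls held 119.6, 93.8 and 86.2 FPKM of Kl, 41.0, 37.4 and 43.0 of Vdr, 4.45, 7.87 and 5.33 of Cyp27b1 and 8.76, 10.8 and 8.22 of Trpv5, and each overlapped with vehicle. Cyp24a1, at 18.7, 18.3 and 14.9, was below all vehicle-treated controls of 33.0 to 49.6 (-1.31, adjusted p = 0.318), and Calb1, at 117, 119.9 and 74.4, was below 134 to 179 (-0.62, adjusted p = 0.400). Slc8a1 was at 27.3, 14.1 and 16.9 and S100g at 2000.9, 2378 and 1129, overlapping with vehicle. In the same kidneys connecting tubule and principal cell markers summed to 749 to 951 FPKM against 387 to 454 under vehicle, without overlap, and the adjusted p of the 6 tested markers ran from 0.318 to 0.608. These controls enter the differences between rapamycin effects, and the part of this shift was not tested.

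In DKO kidneys 0 of 8 passed by edgeR, against 2.1% of all genes higher and 3.47% lower, with 1 higher and 1 lower at an unadjusted p under 0.05 and 1 lower by DESeq2. Trpv5 was at 7.81, 8.64 and 7.96 FPKM under rapamycin and 9.77 to 21.3 under vehicle, without overlap (-0.92, adjusted p = 0.0526), and without DKO vehicle replicate 2 it passed (-1.17, adjusted p = 0.0135). Kl was at 73.8, 94.9 and 108, Vdr at 38.2, 41.2 and 38.3 and Cyp24a1 at 18.8, 31.7 and 45.4 (0.76, adjusted p = 0.222), all overlapping with vehicle. Cyp27b1, at 9.28, 10.6 and 5.72, was above all vehicle-treated DKO kidneys (1.17, adjusted p = 0.332), and Calb1, at 73.9, 83.9 and 96.9, was below all of them (-0.43). Slc8a1 was at 11.0, 15.4 and 21.6 and S100g at 1738, 1499.6 and 1508, overlapping with vehicle. In the same kidneys proximal tubule markers summed to 3252 to 3557 FPKM against 1785 to 3127 under vehicle. Injury markers summed to 1135 to 1258 against 1463 to 3304, and macrophage markers to 34.5 to 50.5 against 60.7 to 85.2. The distal convoluted tubule, connecting tubule and principal cell, and thick limb sums overlapped. The part of these shifts was not tested.

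The difference between the rapamycin effects was tested itself. Against the effect in controls, 6 of 8 members rose more in Tsc2 KO kidneys and 0 less, against 11.4% and 9.38% of all genes, with differences from 0.59 for Vdr to 2.76 for Calb1 on the log2 scale. Kl differed by 2.05 (SE 0.40, adjusted p = 0.00215) and Cyp24a1 by 2.52 (SE 0.50, adjusted p = 0.00243), and Trpv5 at -1.04 did not pass (adjusted p = 0.0589). Without the libraries high in adrenal cortex transcripts, Trpv5 at -1.17 (adjusted p = 0.0208) and Cyp27b1 at 1.73 (adjusted p = 0.0244) passed, and Slc8a1 at 1.70 (adjusted p = 0.0696) and Vdr at 0.56 (adjusted p = 0.0668) did not. With no filter on low counts Vdr was at 0.58 (adjusted p = 0.0817). Against the effect in DKO kidneys, Kl, Calb1 and S100g rose more in Tsc2 KO kidneys and 0 less, against 4.7% and 2.25% of all genes, and without the libraries high in adrenal cortex transcripts Kl was at 1.27 (adjusted p = 0.0562). Rapamycin-treated Tsc2 KO kidneys compared with vehicle-treated controls had 0 members past the test by edgeR, against 0.364% of all genes higher and 0.135% lower, with 0 higher and 2 lower at an unadjusted p under 0.05 and 2 lower by DESeq2. Calb1 was at -1.08 (adjusted p = 0.0821), or -1.32 (adjusted p = 0.0395) without Tsc2 KO rapamycin replicate 2, and Cyp24a1 at -1.18 (adjusted p = 0.191) in that comparison. Compared with vehicle-treated DKO kidneys they had 0 members past the test as well, against 0.44% higher and 0.828% lower, with 0 higher and 1 lower at an unadjusted p under 0.05 and 0 by DESeq2.

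Of 43 other genes of phosphate, calcium, magnesium, vitamin D and parathyroid hormone handling, 40 were tested. The list shares Slc12a3, Trpm6, Cnnm2, Cldn10, Cldn16, Slc34a1, Lrp2 and Cubn with the cell type markers above, so its counts are not separate from those sums. In Cagg Tsc2 KO kidneys 8 of the 40 were higher and 14 lower, where 15.6% and 13.4% of all genes were. In both KSP cohorts together 5 were higher and 16 lower, where 20.7% and 21.4% of all genes were, with a list median of -0.32 against -0.02 over all genes tested. Slc20a1, a sodium-phosphate cotransporter, was higher by 1.87 (adjusted p = 7.72e-05) in Cagg and by 2.20 (adjusted p = 1.53e-08) in both KSP cohorts together, and Gc, the vitamin D binding protein, by 3.73 (adjusted p = 3.79e-07) and 3.12 (adjusted p = 7.47e-06). Lower were Lrp2, the megalin receptor that takes up filtered vitamin D binding protein (-1.08 and -1.89), and in Cagg the magnesium hormone Egf (-3.07), the parathyroid hormone receptor Pth1r (-1.45) and the tight junction gene Cldn16 (-1.28). In both KSP cohorts together Fgfr3, one of the FGF receptors, was at -1.18, the plasma membrane calcium pump Atp2b4 at -1.16 and the tight junction gene Cldn10 at -1.32.

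The list was also counted in DKO and rapamycin-treated kidneys, in comparisons that share the Tsc2 KO libraries with those above. DKO against Tsc2 KO kidneys had 8 higher and 1 lower in Cagg, beside 5.34% and 4.58% of all genes. Over both KSP cohorts 11 were higher and 2 lower, beside 8.68% and 7.53% of all genes, with Slc20a1 at -1.38, Cldn14 at -2.31, Atp2b4 at 1.05, Fgfr3 at 0.86, Egf at 1.87 and Lrp2 at 1.08. Rapamycin in Tsc2 KO kidneys raised 16 and lowered 3, beside 15.4% and 14% of all genes, with Egf at 3.88, Cubn, the cubilin receptor, at 2.26, Lrp2 at 2.17, Pth1r at 2.09, Cldn16 at 1.59 and Slc20a1 at -2.39. Proximal tubule markers, which include Lrp2 and Cubn, summed to 2976 to 3688 FPKM under rapamycin and 626 to 1001.5 under vehicle, and their part in these changes was not tested. In DKO kidneys rapamycin raised 2 and lowered 2 of the 40, beside 2.1% and 3.47% of all genes.

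How alike the members' patterns were is described by Pearson's correlation of log2(FPKM + 1) over the 14 group means, each cohort centred on its own mean, which share libraries, cohorts and genotypes. Kl correlated with Calb1 at 0.92 and with Slc8a1 at 0.90, Calb1 with Slc8a1 at 0.90, and Kl with Trpv5 at -0.74. Cyp27b1 was near 0 with Kl, at -0.02. Among 10809 genes the patterns most like Kl were those of Cyp2j11, Slc16a4 and Sfrp1 (0.99 each), those most like Calb1 were of Cav1 (0.97), Prkd1 and Atp2b4 (0.96 each), and those most like Trpv5 were of Clu, Ncstn (0.96 each) and Col1a2 (0.95). The highest correlation of any gene was 0.96 for Vdr (Dnaja1), 0.93 for Cyp24a1 (Mpp5), 0.86 for Cyp27b1 (Sestd1), 0.93 for Slc8a1 (Mfsd4a) and 0.96 for S100g (Pgrmc1).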

How the data were processed

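Poly(A) RNA of whole kidneys was sequenced from non-directional NEBNext Ultra II libraries. The authors deposited raw read counts per gene as whole numbers, without normalization, for each cohort. They also deposited FPKM, in which the authors scaled counts by gene length and library size. The submitters' processing notes name STAR 2.6.1d, HISAT2 2.0.5, featureCounts 1.5.0-p3, DESeq2 1.20.0 and mm10. The annotation is not given in the sources used here. Reads shared by near-identical genes may have been dropped or split.

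Counts were tested in R 4.3.3 with edgeR 4.0.16 (filterByExpr, TMM, glmQLFit and glmQLFTest), fitting the groups of each cohort jointly, and for KSP and KSP drug vehicle together with cohort as a term. P-values were adjusted by Benjamini-Hochberg over all tested genes, 16235 to 17561 per fit, and 0.05 was the threshold. Fold changes are on the log2 scale of the fitted counts. The procedure was tested on simulated data. Alternatives were RLE scaling, no filter on low counts, an FPKM minimum of 5, DESeq2 1.42.0, only the groups compared, a replicate block, and leaving out each library; leaving aside libraries above 100.0 FPKM of adrenal or 300.0 FPKM of macrophage markers was added after seeing the data. Cagg was also fitted with Xist as covariate and with the count table's names.

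The members and lists were chosen with earlier results of these data known. All 8 members are named throughout, and of the other mineral handling genes at most the 6 with the smallest adjusted p per comparison, with Trpv6 added after its values were seen. Same-numbered mice deviated together (every pair above 0.1, from 0.189 to 0.246) only in DKO and Tsc2 KO of the KSP cohort, so the block is given beside that result. Mice are separate animals.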

Additional observations from a re-analysis of the deposited data

Results flagged for a closer look

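Rapamycin changed 6 of the 8 genes by a different amount in Tsc2 KO than in control kidneys, by an interaction term in edgeR over all genes, adjusted by Benjamini-Hochberg. Of all genes, 11.4% differed in the higher and 9.38% in the lower direction. The difference on the log2 scale was 2.76 (SE 0.36, adjusted p = 0.000108) for Calb1, 2.52 (SE 0.50, adjusted p = 0.00243) for Cyp24a1, 2.05 (SE 0.63, adjusted p = 0.0300) for Slc8a1 and 2.05 (SE 0.40, adjusted p = 0.00215) for Kl. It was 1.28 (SE 0.38, adjusted p = 0.0267) for S100g and 0.59 (SE 0.20, adjusted p = 0.0454) for Vdr. Without the libraries high in adrenal cortex transcripts Slc8a1 and Vdr did not pass (adjusted p = 0.0696 and 0.0668), and with no filter on low counts Vdr did not either (adjusted p = 0.0817).

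Rapamycin also changed 3 genes by a different amount in Tsc2 KO than in DKO kidneys, where 4.7% of all genes differed in the higher and 2.25% in the lower direction. The difference was 2.56 (SE 0.36, adjusted p = 0.000697) for Calb1, 1.70 (SE 0.38, adjusted p = 0.0142) for S100g and 1.54 (SE 0.40, adjusted p = 0.0270) for Kl, and without those libraries Kl did not pass (adjusted p = 0.0562).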

How the results depend on the processing

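Of the 56 member differences that passed the test, none changed direction under any alternative. Among their 707 values under alternatives, 624 stayed past the threshold and 83 did not. Of the differences that had not passed, 32 passed under at least 1 alternative. Among these the values that changed sign were those of Cyp27b1 on Tsc2 loss under vehicle (from -1.36 to 0.77 over the fits without 1 library, and -1.35 when libraries high in adrenal cortex or macrophage transcripts were left aside), of Cyp27b1 under rapamycin in Tsc2 KO kidneys (from -0.016 to 2.10 over the fits without 1 library) and of Cyp24a1 in the Cagg test of the Tfeb effects (-0.12 with Xist as covariate). A further 104 differences passed under no setting, and 42 of these took the other sign under at least 1 alternative, 16 of them of Cyp27b1. On Tsc2 loss in Cagg, Cyp27b1 ran from -0.17 to 0.55. The cause was not tested.

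Counts of members past the threshold that moved by over 1.5 times are given here. In Tsc2 KO against control, Cagg, 1 was higher with no filter and with DESeq2, and 2 were lower with the count table's names, besides smaller moves to 5 lower with no filter and DESeq2 and 3 with Xist. In DKO against Tsc2 KO, Cagg, 1 was higher with only the groups compared, with Xist and with the count table's names, and 0 lower with those names. In KSP, 3 were higher with DESeq2 and 0 with the replicate block, with only the groups compared and with libraries left aside. Under vehicle 2 were higher with libraries left aside and 0 lower with only the groups compared. In DKO against control, Cagg, 4 were lower with no filter and with only the groups compared, 3 with DESeq2 and 0 with the count table's names. In KSP DESeq2 gave 1 higher and 1 lower, and under vehicle no filter, DESeq2 and only the groups compared gave 1 lower. In both KSP cohorts together 1 was higher with DESeq2, and 1 lower with RLE, with no filter and with libraries left aside. With no filter, 1 was higher in Cagg Tfeb KO, 1 lower under rapamycin in DKO, and 1 lower in rapamycin-treated Tsc2 KO against vehicle-treated controls. DESeq2 gave 1, 1 and 2 lower for rapamycin in DKO, rapamycin in controls and that last comparison. For the rapamycin effect in Tsc2 KO minus that in controls, 1 was lower with no filter, DESeq2 and libraries left aside. For the Tfeb effects with minus without Tsc2 deletion, no filter gave 2 higher and 1 lower and DESeq2 1 lower in Cagg, and DESeq2 3 higher in KSP.

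Leaving out 1 library at a time gave 0 to 1 higher for Tsc2 KO against control in Cagg, 1 to 4 higher for DKO against Tsc2 KO in Cagg, 0 to 1 in KSP and 3 to 6 under vehicle. It gave 0 to 1 lower for DKO against control under vehicle, 0 to 1 higher and 1 to 3 lower in both KSP cohorts together, and 0 to 1 lower for rapamycin in DKO and for rapamycin-treated Tsc2 KO against vehicle-treated controls. The squared difference between mice of a group was 16.4 to 87.5 times that of sampling noise, and depth was not varied.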
